A study of Ovis aries with 6 samples.

Results

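The genes described here encode the main building blocks of the basement membrane laid down by endothelial cells: the type IV collagen chains COL4A1 and COL4A2, the laminin chains LAMA4, LAMA5, LAMB1, LAMB2 and LAMC1, the nidogens NID1 and NID2, and perlecan, encoded by HSPG2. They were taken by gene symbol, and each of the 10 symbols was found as 1 row among the 18865 rows of the table of raw counts. All 10 passed the filter on low counts, which left 14326 genes to test. The samples were cultured sheep (Ovis aries) mitral valve endothelial cells, which line the leaflets of the mitral valve. They were kept for 24 h with sheep plasma, either naive (3 libraries) or taken after myocardial infarction and called post-MI here (3 libraries). The labels give no other agent, and no genotype, breed or age of the animals. Nor do they tell if the replicates are different cultures, plasma samples or animals, and a p-value here covers the spread among these 6 libraries alone, which may be technical.

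The basement membrane is a thin sheet of matrix on which endothelial cells rest. Laminins, trimers of an alpha, a beta and a gamma chain, polymerise at the cell surface, and type IV collagen forms a covalently crosslinked network beside them. Nidogens and perlecan, a large heparan sulfate proteoglycan, bind both networks and join them. In blood vessel endothelium the alpha chains in use are mainly alpha 4 and alpha 5, and nearly all of these trimers share the gamma 1 chain.

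With post-MI plasma, the CPM of 5 of the 10 genes lay above all naive libraries, as did that of 8.32% of all genes tested: COL4A1, COL4A2, LAMA4, NID1 and HSPG2. Fitted fold differences in these were between 1.40 (LAMA4) and 1.93 (HSPG2). None of the 10 lay below all naive libraries, where 7.82% of all genes did. None of the 10 passed the test over all genes in edgeR, limma-voom or DESeq2, and naive replicate 1 was the lowest library for 8 of the 10. CPM is a gene's count scaled to a fixed library total (counts per 1000000), after trimmed-mean (TMM) scaling between libraries.

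Total counts per library were 14858472 to 20672794. Naive replicate 1 stood apart from the rest: it was the lowest of the 6 libraries for 29.2% and the highest for 28.8% of the 14326 genes. The cells carried endothelial markers in every library, with all 13 fixed markers in the table. Their summed level was 3336 to 3780 CPM with naive and 3526 to 4857 CPM with post-MI plasma. PECAM1 and CDH5 were the highest of them in every library. CLDN5 was at 0.20 CPM (4 counts) in naive replicate 1, and VWF at 6.58 to 17.8 CPM with naive plasma. ERG, ESAM and EMCN were also lowest in naive replicate 1, at 57.9, 38.5 and 149 CPM. TEK, KDR and NOS3 were highest in that library, at 128, 82.8 and 337 CPM. The 7 fibroblast and valve interstitial markers summed to 5754 to 14200 and 10122 to 12333 CPM, nearly all of it COL1A1 and COL3A1. The 7 smooth muscle and pericyte markers in the table, of 8 fixed, summed to 917 to 4792 and 4300 to 5839 CPM, mostly ACTA2, and RGS5 was at 0 in every library. Naive replicate 1 had the lowest sum of both, at 5754 and 917 CPM, but single markers did not all follow. COL1A1, COL3A1, DCN, FAP, THY1, MYH11, ACTA2, PDGFRB and CSPG4 were lowest there. PDGFRA (58.6 against 24.7 to 32.0 CPM elsewhere) and SMTN (86.2 against 30.8 to 71.2 CPM) were highest there. CNN1 was lowest in naive replicate 3 (8.46 CPM) and LUM in post-MI replicate 1 (26.3 CPM). The 8 leukocyte markers in the table, of 9 fixed, summed to 36.8 to 60.0 and 37.3 to 44.2 CPM, with MS4A1 at 0, and the 4 lymphatic markers to 7.99 to 23.3 and 9.53 to 12.8 CPM. Of 4 epithelial markers 2 were in the table, with CDH1 at 0 throughout and EPCAM above 0 in post-MI replicate 3 alone. Groups did not overlap for 2 endothelial markers (ROBO4 and CLDN5) and 1 pericyte marker (CSPG4), all higher with post-MI plasma, and for 0 of the fibroblast and lymphatic markers tested. CSPG4 was at 64.4, 155 and 99.5 CPM with naive and 211, 172 and 158 CPM with post-MI plasma. Fibroblasts and smooth muscle cells also make basement membrane proteins, and in bulk RNA a different mix of cells and a different amount of RNA per cell cannot be told apart. The part of these markers in the results below was not tested.

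**Figure D1:**
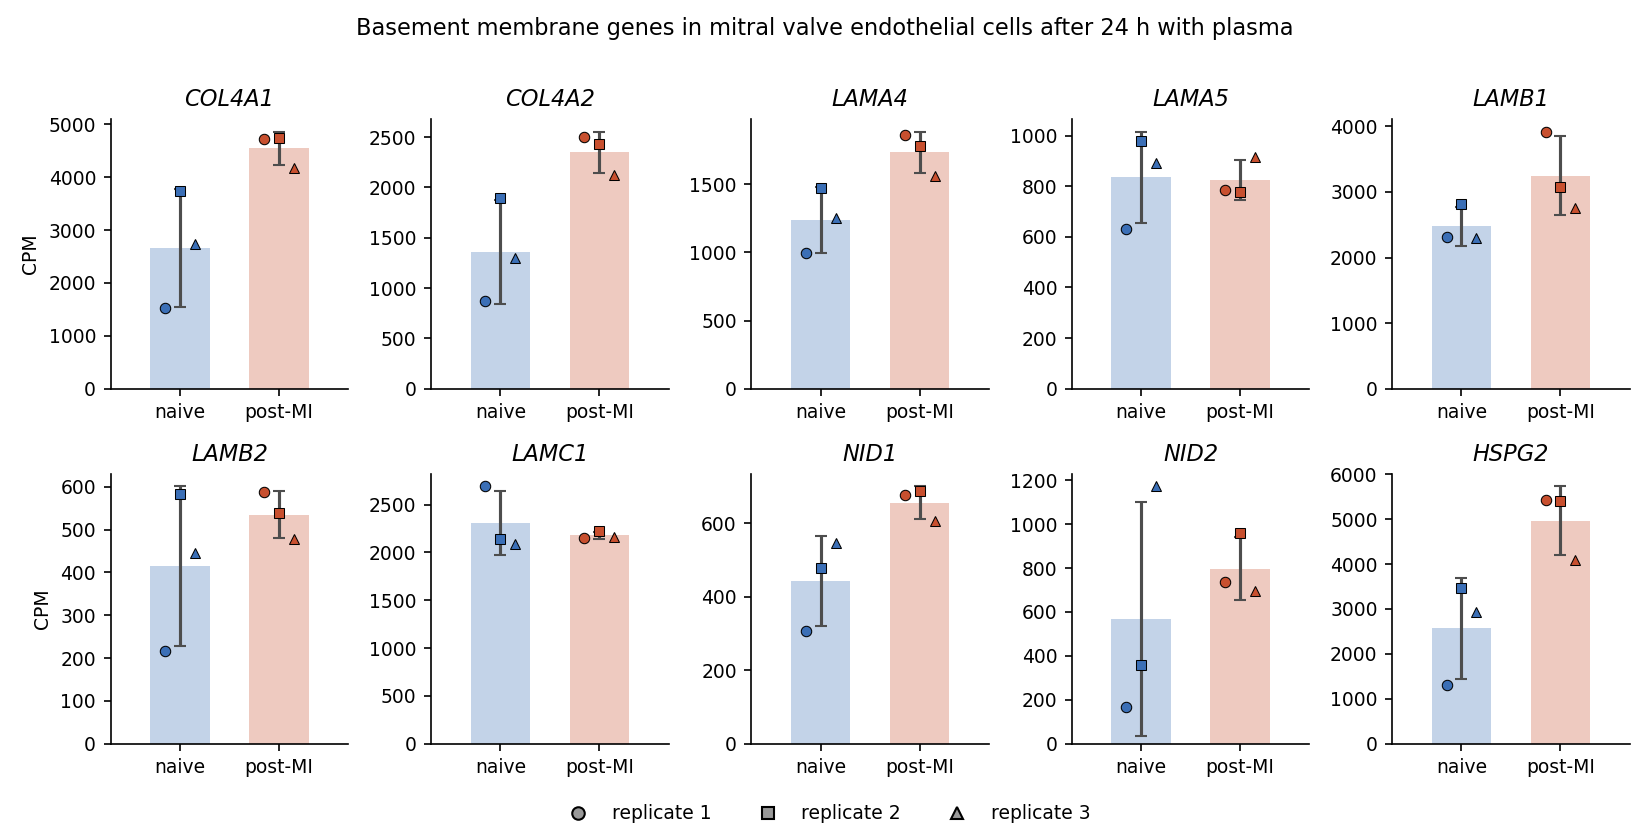
CPM of the 10 genes in each library (vertical axes, each from 0), by group. Bars are means, error lines are SD over 3 libraries, and symbols mark replicates. COL4A1, COL4A2, LAMA4, NID1 and HSPG2 have all post-MI libraries above all naive ones, and naive replicate 1 (circle) is the lowest library in 8 panels.

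The question put to these libraries was how the plasma of infarcted animals affects valve endothelium, and for the basement membrane the type IV collagen network comes first. COL4A1 encodes the alpha 1 chain and COL4A2 the alpha 2 chain, which assemble into the widely expressed form of the collagen IV trimer. COL4A1 was at 1518, 3733 and 2734 CPM in naive replicates 1, 2 and 3 and at 4723, 4736 and 4183 CPM in post-MI replicates 1, 2 and 3. The post-MI libraries were close together and above every naive library, while the naive libraries were spread 0.66 on the log2 scale (SD) against 0.10. The means were 2661 ± 1109 and 4547 ± 315 CPM (SD, n = 3 each), and the fitted log2 fold change was 0.77 ± 0.32 (SE, edgeR adjusted p = 0.566). COL4A2 was at 875, 1897 and 1303 CPM with naive and 2503, 2430 and 2119 CPM with post-MI plasma. Its groups did not overlap either, with naive replicate 1 again lowest. Its log2 fold change was 0.79 ± 0.28 (SE, edgeR adjusted p = 0.561). Without naive replicate 1 these were 0.50 ± 0.19 for COL4A1 and 0.57 ± 0.20 for COL4A2 (SE), and without naive replicate 2 they were 1.10 and 1.11.

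Perlecan showed the largest fitted fold difference of the 10 genes. HSPG2 was at 1309, 3461 and 2940 CPM in naive replicates 1, 2 and 3 and at 5420, 5394 and 4093 CPM in post-MI replicates 1, 2 and 3. All post-MI libraries lay above all naive ones, and post-MI replicate 3 was the nearest to them. The means were 2570 ± 1123 and 4969 ± 759 CPM (SD, n = 3 each). The log2 fold change was 0.95 ± 0.36 (SE, edgeR adjusted p = 0.566), and 0.65 ± 0.20 (SE) without naive replicate 1, with the groups still apart.

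The laminin chains did not share a pattern. LAMA4, the alpha 4 chain typical of endothelium and other mesodermal cells, was at 992, 1470 and 1248 CPM with naive and 1856, 1778 and 1560 CPM with post-MI plasma. Its groups did not overlap, and naive replicate 2 and post-MI replicate 3 were the nearest libraries of the groups. The log2 fold change was 0.49 ± 0.19 (SE, edgeR adjusted p = 0.566), and 0.36 ± 0.16 (SE) without naive replicate 1. LAMA5, the alpha 5 chain, which replaces or joins alpha 4 as vessels mature, was at 631, 979 and 893 CPM with naive and 784, 775 and 916 CPM with post-MI plasma. Both its lowest and its highest library were naive, and the log2 fold change was -0.02 ± 0.20 (SE, edgeR adjusted p = 0.985). The sign of LAMA5 turned in 6 of 12 alternative fits, so no direction is given for it.

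Of the beta chains, LAMB1 (beta 1) was at 2312, 2816 and 2296 CPM with naive and 3920, 3073 and 2752 CPM with post-MI plasma. Post-MI replicate 3 lay below naive replicate 2, so the groups overlapped, and post-MI replicate 1 stood above the other 5 libraries. The log2 fold change was 0.39 ± 0.20 (SE, edgeR adjusted p = 0.582). LAMB2 (beta 2), the alternative beta chain, was at 216, 584 and 444 CPM with naive and 588, 539 and 477 CPM with post-MI plasma. Here naive replicate 1 alone was low, the other 5 libraries lay between 444 and 588 CPM, and the log2 fold change went from 0.37 ± 0.34 to 0.07 ± 0.17 (SE) without it. LAMC1, the gamma 1 chain shared by these trimers, was at 2691, 2143 and 2089 CPM with naive and 2146, 2223 and 2165 CPM with post-MI plasma. It was the steadiest of the 10 genes, with a highest library 1.29 times the lowest, and the single gene of the 10 for which naive replicate 1 was highest. Its log2 fold change was -0.08 ± 0.17 (SE, edgeR adjusted p = 0.892), turning to 0.05 when naive replicate 1 was left out.

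The row of LAMB2 may not be independent of another row. A row with the provisional name LOC101106719 had 3.72% to 5.19% more counts than LAMB2 in each of the 6 libraries (4474 and 4307 counts in naive replicate 1). It was the nearest row to LAMB2 of all tested, and its log2 fold change was 0.37 ± 0.34 (SE, edgeR adjusted p = 0.735). The symbol LAMB2 was not found in RefSeq's sheep gene table (assembly ARS-UI_Ramb_v3.0), where LOC101106719 lies next to USP19. Whether the same reads stand behind both rows was not tested. For the other 9 genes no row came within 10% in every library. Near-equal rows also occur among the other genes tested, such as AARS and AARS1 (naive means of 538 and 529 CPM, log2 fold changes of -0.316 and -0.315). Shares over all genes count such rows separately, and their number was not tested.

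Nidogens link the laminin and collagen networks. NID1 was at 307, 478 and 546 CPM with naive and 676, 687 and 606 CPM with post-MI plasma. The groups did not overlap, and the means were 444 ± 123 and 656 ± 44.4 CPM (SD, n = 3 each). The log2 fold change was 0.57 ± 0.23 (SE, edgeR adjusted p = 0.566), and 0.37 ± 0.14 (SE) without naive replicate 1. NID2, its close relative, was at 168, 359 and 1172 CPM with naive and 734, 962 and 695 CPM with post-MI plasma. It was the most variable of the 10 genes, with a highest library 6.96 times the lowest, and both of these were naive. Its log2 fold change was 0.49 ± 0.63 (SE, edgeR adjusted p = 0.815), 0.07 without naive replicate 1 and 1.60 without naive replicate 3.

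**Figure D2:**
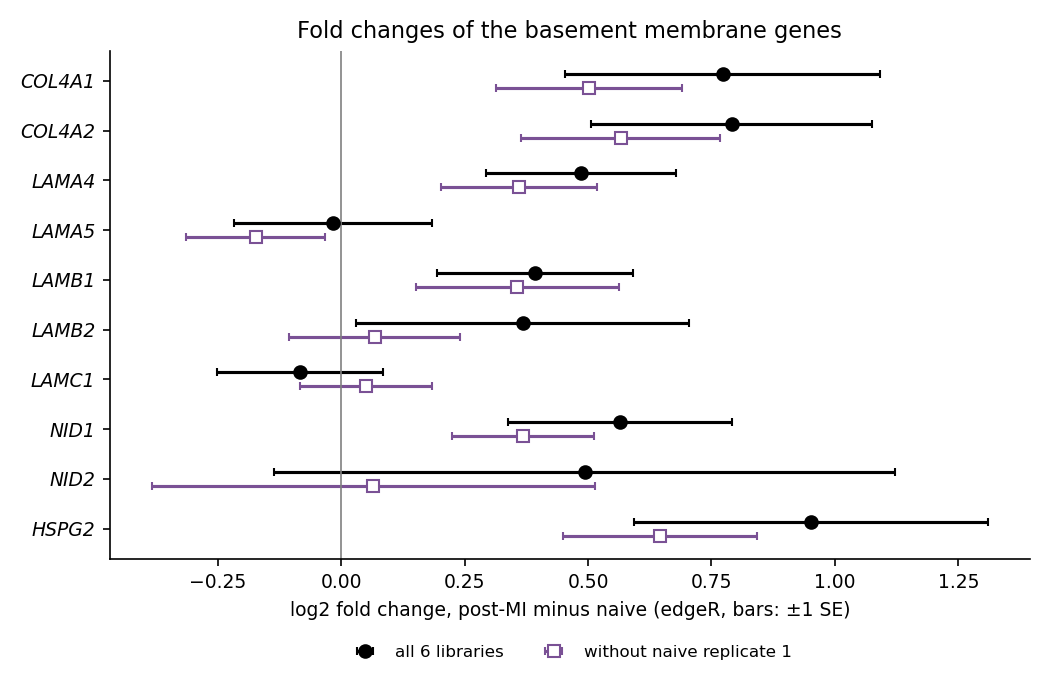
Log2 fold change of each gene (horizontal axis, post-MI minus naive, edgeR) with all 6 libraries (filled circles) and without naive replicate 1 (open squares). Lines are ±1 SE. Leaving out that library brings COL4A1, COL4A2, NID1 and HSPG2 closer to 0 but leaves them positive, and brings LAMB2 and NID2 to 0.07.

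Across the 10 genes, 8 had a positive log2 fold change, where 47.9% of all genes tested did, and the median was 0.49 against -0.01 for all genes. By edgeR's quasi-likelihood test 0 of the 10 passed at an adjusted p of 0.05, where 0.0% of all genes did. The smallest adjusted p of any gene was 0.254. At an unadjusted p under 0.05 edgeR gave 5 of the 10, the same genes whose groups did not overlap, beside 8.68% of all genes. DESeq2's Wald test called 0 of the 10, where it called 1.52% of all genes, and limma-voom also called 0. Both gave 5 of the 10 at an unadjusted p under 0.05, beside 9.78% of all genes in DESeq2 and 8.27% in limma-voom. Without naive replicate 1 the count in edgeR was 4 (COL4A1, COL4A2, NID1 and HSPG2), beside 8.1% of all genes, and 6 genes did not overlap, with LAMC1 added, beside 12.0%. It was 0 when post-MI replicate 1 or post-MI replicate 2 was left out, beside 4.81% and 4.17% of all genes. Leaving out naive replicate 3 gave 3 of the 10 (10.2% of all genes), as did leaving out post-MI replicate 3 (9.74%).

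Summed over chains, type IV collagen was at 2393, 5630 and 4036 CPM with naive and 7226, 7166 and 6302 CPM with post-MI plasma. The 5 laminin chains together were at 6841, 7993 and 6971 CPM and at 9294, 8389 and 7870 CPM. Collagen sums did not overlap, and laminin sums overlapped between naive replicate 2 and post-MI replicate 3. The ratio of group means was 1.72 for collagen and 1.17 for laminin, and 1.43 and 1.14 without naive replicate 1.

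**Figure D3:**
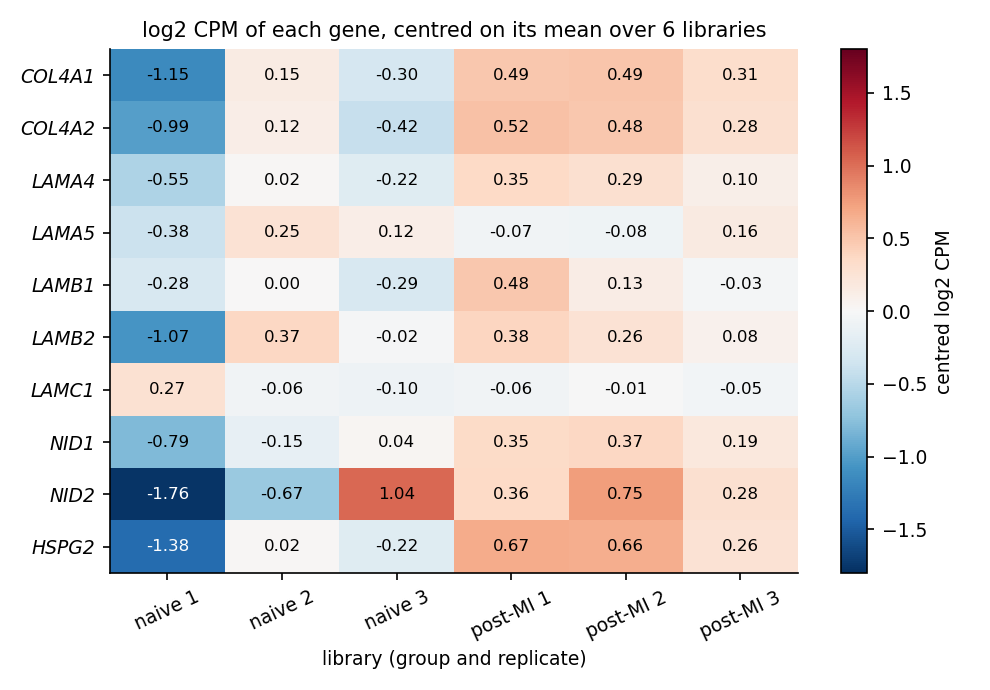
Log2 CPM of each gene (rows) in each library (columns), centred on the gene's own mean over 6 libraries; red is above and blue below that mean. Naive replicate 1 is blue in all rows except LAMC1 (0.27), down to -1.76 for NID2. The post-MI columns of COL4A1, COL4A2, LAMA4, LAMB2, NID1, NID2 and HSPG2 are all above 0, though the groups of LAMB2 and NID2 overlap.

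The naive libraries were spread more widely than the post-MI libraries for 9 of the 10 genes (SD of log2 CPM), with LAMB1 the exception. Over all genes tested the same held for 66.5%. For NID2 the SD was 1.41 among naive and 0.25 among post-MI libraries, and for HSPG2 0.75 and 0.23. Naive replicate 1 was 78.0% below the mean of the other naive libraries for NID2, 59.1% for HSPG2, 58.1% for LAMB2 and 53.0% for COL4A1. It was 9.54% below for LAMB1 and 27.1% above for LAMC1.

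Ratios between partner chains in a library do not depend on scaling between libraries, and 4 of them were tested by exact permutation of the libraries between groups (two-sided, with 0.1 as the lowest p that 3 against 3 can give). The collagen pair kept nearly the same ratio in every library. The log2 ratio of COL4A2 to COL4A1 was -0.80, -0.98 and -1.07 with naive and -0.92, -0.96 and -0.98 with post-MI plasma. The groups differed by -0.01 (exact permutation p = 0.9, adjusted over 4 ratios 1.0), while for each chain alone the highest library was 3.12 times (COL4A1) and 2.86 times (COL4A2) the lowest.

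The alpha chains parted by group. The log2 ratio of LAMA5 to LAMA4 was -0.65, -0.59 and -0.48 with naive and -1.24, -1.20 and -0.77 with post-MI plasma. All post-MI ratios lay below all naive ones, and naive replicate 1 lay with the other naive libraries. The means were -0.57 ± 0.09 and -1.07 ± 0.26 (SD, n = 3 each), a difference of -0.50 with an exact permutation p of 0.1, the smallest possible here, and 0.4 adjusted over the 4 ratios. With single libraries left out the difference ran from -0.65 to -0.41. Ratios of LAMB2 to LAMB1 were -3.42 in naive replicate 1 and -2.74 to -2.27 in the other 5 libraries (exact permutation p = 1.0). The log2 ratio of NID2 to NID1 was -0.87, -0.41 and 1.10 with naive and 0.12, 0.48 and 0.20 with post-MI plasma, so the naive libraries lay on both sides of the post-MI ones (exact permutation p = 0.7).

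**Figure D4:**
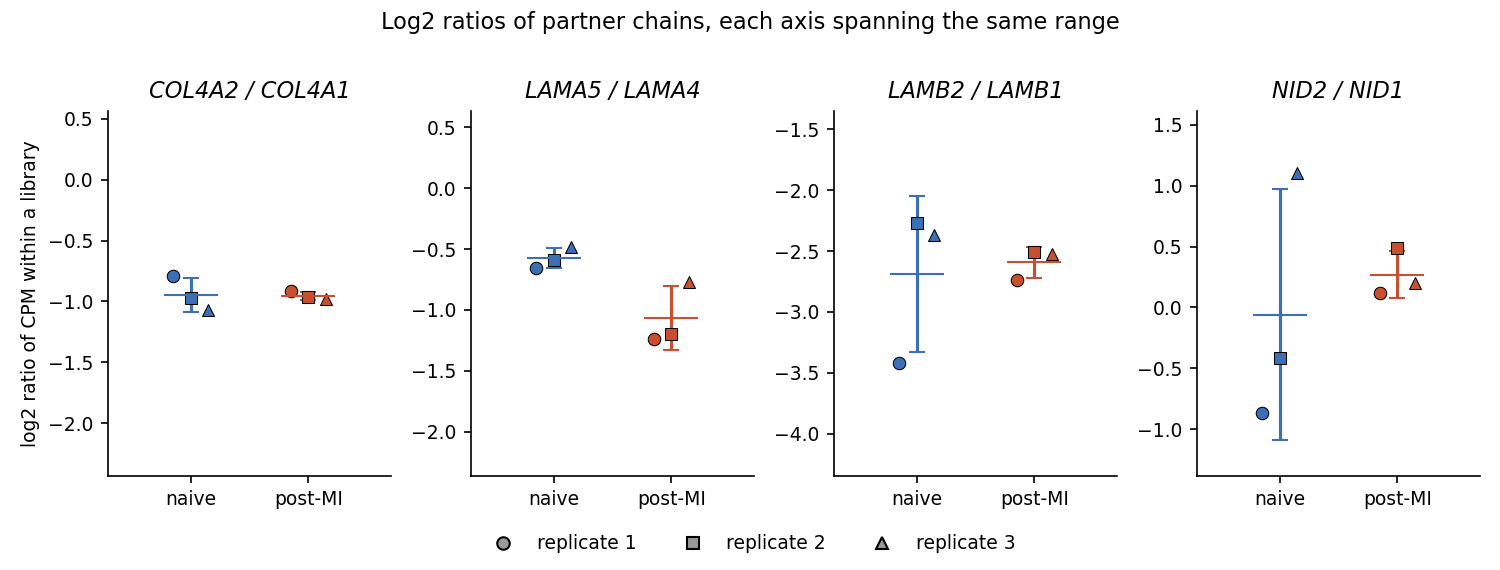
Log2 ratio of the CPM of partner chains within each library (vertical axes, all of the same span), by group. Horizontal lines are means, error lines are SD over 3 libraries, and symbols mark replicates. COL4A2 to COL4A1 varies least, and LAMA5 to LAMA4 is the ratio whose groups do not overlap.

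Likeness of pattern was measured as the root mean square difference between centred log2 CPM profiles over the 6 libraries, where 0 would be an identical pattern. Of the 14325 other genes tested, COL4A2 was the nearest to COL4A1 (0.08), and COL4A1 the nearest to COL4A2. The 2 genes are neighbours in the RefSeq gene table. The next nearest to COL4A2 were the pericyte marker CSPG4 and CAVIN3 (both 0.09), named after their values were seen. Among the 6 smooth muscle and pericyte markers tested, CSPG4 was the single one without overlap. PDGFRB, on the same list, overlapped, at 93.8, 183 and 204 CPM with naive and 151, 154 and 166 CPM with post-MI plasma. The next nearest to COL4A1 were LOC114112551, with a provisional name, and MAFK, which encodes a small Maf transcription factor. HSPG2 was the 21st nearest gene to COL4A1, LAMB2 the 94th and NID1 the 202nd, while LAMC1 was the 8829th. Nearest to LAMA4 were TRMT44, TUT4 (a terminal uridylyltransferase) and the kinase TAOK2, and LAMB1 was its 289th. Nearest to NID1 were PNKD, MPST (a sulfurtransferase) and LOC101104051, and LAMA4 was its 212th. These ranks describe 6 libraries with naive replicate 1 among them and were not tested.

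Other basement membrane genes were a list of 25, of which 24 were in the table and 16 passed the filter. The 8 below it were COL4A3, LAMA1, LAMA3, SMOC2, NPNT, FRAS1, FREM1 and FREM2, with laminin alpha 1 (LAMA1) at 0 or 1 counts and alpha 3 (LAMA3) at 1 to 17 counts per library. Of the 16, edgeR called 0 higher and 0 lower, with 1 at an unadjusted p under 0.05, beside 8.68% of all genes. The log2 fold change was positive for 12 of the 16, where 47.9% of all genes were positive, and the median was 0.50. Without naive replicate 1 these were 11 of 17 and 0.10. COL18A1, whose collagen XVIII core carries endostatin, was at 98.4, 142 and 152 CPM with naive and 260, 284 and 128 CPM with post-MI plasma. Post-MI replicate 3 lay within the naive range, and the log2 fold change was 0.78 ± 0.32 (SE). COL4A5, a chain of the other collagen IV trimers, was far lower, at 1.65, 6.20 and 5.12 CPM with naive and 7.88, 9.97 and 8.60 CPM with post-MI plasma. It did not overlap and gave 1.03 ± 0.44 (SE), and 0.65 without naive replicate 1. SMOC1, a secreted calcium-binding matrix protein, was at 0.705 to 1.05 CPM with naive and 1.21 to 1.98 CPM with post-MI plasma, also without overlap. HMCN1, the very large matrix protein hemicentin, was at 29.2 to 132 and 104 to 233 CPM, with overlap.

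Genes for folding, secreting and crosslinking type IV collagen had log2 fold changes of both signs. Of 17 tested, edgeR called 0 higher and 0 lower, with 1 at an unadjusted p under 0.05, beside 8.68% of all genes. Their median log2 fold change was -0.08, with 6 positive and 11 negative, where 47.9% of all genes were positive. Without naive replicate 2 the median was 0.02 with 9 positive, and without naive replicate 1 it was -0.11 with 5 positive. LOXL2, a lysyl oxidase that crosslinks collagen IV, was at 1149, 1224 and 972 CPM with naive and 613, 732 and 892 CPM with post-MI plasma. All post-MI libraries lay below all naive ones, and the log2 fold change was -0.58 ± 0.19 (SE, edgeR adjusted p = 0.545), or -0.55 without naive replicate 1. PXDN, the peroxidase that forms sulfilimine bonds between collagen IV trimers, was at 533 to 635 CPM with naive and 619 to 812 CPM with post-MI plasma, a log2 fold change of 0.31 ± 0.16 (SE). The prolyl hydroxylase subunit P4HA2 gave -0.42 ± 0.24 and the lysyl hydroxylase PLOD2 -0.60 ± 0.31 (SE), and naive replicate 1 held the highest PLOD2 level, 267 CPM against 89.2 to 161 CPM elsewhere. SERPINH1, the collagen chaperone HSP47, was at 1334 to 2214 and 1598 to 1793 CPM, and was chosen after its values were seen.

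DESeq2 and limma-voom also called 0 genes in these lists and in the list of receptors. At an unadjusted p under 0.05 DESeq2 gave 3 of 16 other basement membrane genes, 1 of 17 collagen processing genes and 0 of 10 receptors. Over all genes it gave 9.78%. The counts from limma-voom were 1, 1 and 0, beside 8.27% of all genes.

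Receptors for the basement membrane gave a median log2 fold change of 0.15, with 8 of 10 positive, and of -0.02 with 4 of 10 positive without naive replicate 1. By edgeR 0 were called in either direction, and 0 were at an unadjusted p under 0.05, beside 8.68% of all genes. ITGB1, the beta 1 integrin shared by most collagen and laminin receptors, was at 1229, 2107 and 1911 CPM with naive and 2317, 2136 and 2572 CPM with post-MI plasma. It did not overlap and gave 0.42 ± 0.23 (SE), and 0.23 without naive replicate 1. Its collagen-binding partner ITGA1 was at 40.0, 83.5 and 83.2 CPM and at 95.5, 98.6 and 97.2 CPM, and the laminin alpha 5 receptor BCAM at 45.4, 134 and 133 CPM and at 137, 162 and 140 CPM. For both, the groups stood apart by a small margin while naive replicate 1 lay far below. ITGA2, another collagen-binding subunit, went the other way in that library, at 176 CPM against 23.5 to 52.3 CPM in the other 5 libraries.

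**Figure D5:**
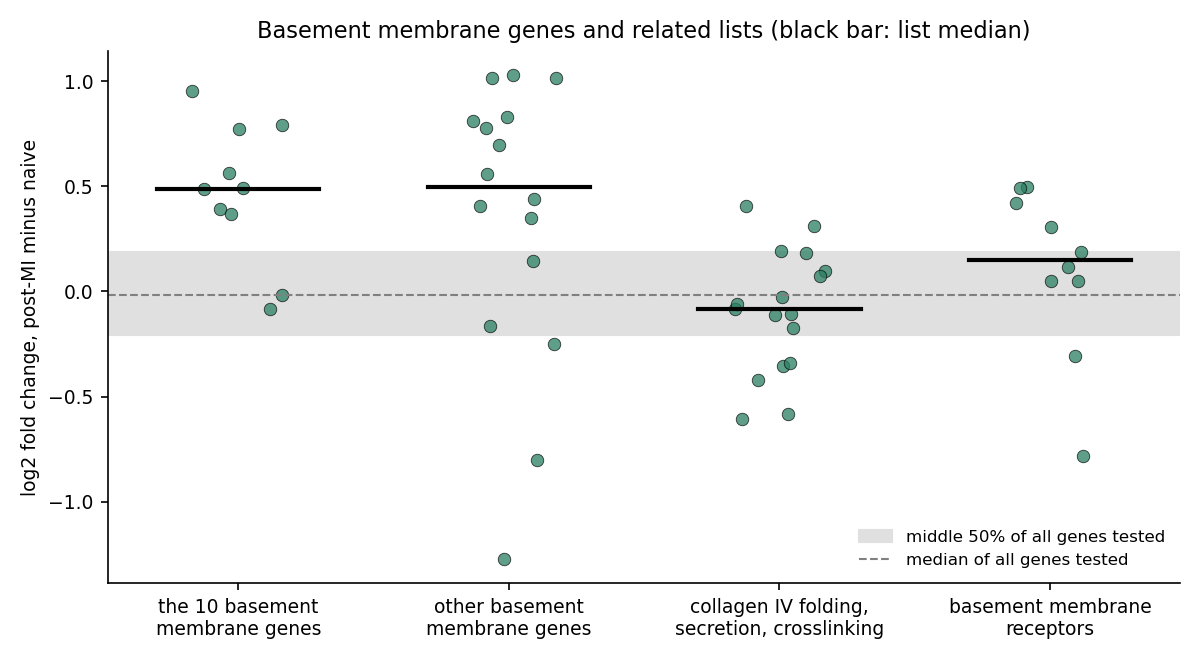
Log2 fold change (vertical axis, post-MI minus naive, edgeR, 6 libraries) of each tested gene in 4 lists. Black bars are list medians, the dashed line is the median of all genes tested and the grey band their middle 50%. The 10 genes and the other basement membrane genes have medians of 0.49 and 0.50, above the band, and the medians of the other lists lie inside it.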

How the data were processed

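Libraries came from a stranded mRNA kit with paired 150 bp reads, per the labels' protocols. Tools named in the submitters' processing notes are featureCounts 2.0.0, STAR 2.5.2b, DESeq2 1.26.0, MultiQC 1.5, SAMtools 1.9 and FastQC, and the build is Oar_v3.1. How strand was set and which annotation was counted is not given in the sources used here. As deposited, the table holds raw counts per gene symbol, and groups and replicate numbers came from the sample titles. The deposited files of single samples hold a signal, the same counts over a constant of each library (100% of non-zero values within 0.01%), and gave no separate test.

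Counts were analysed in R 4.3.3 with edgeR 4.0.16: filterByExpr (minimum count 10, minimum total 15), TMM, and the quasi-likelihood test with Benjamini-Hochberg adjustment over all genes at 0.05. SE was taken as the size of the log2 fold change divided by the root of the F statistic. Ratios and profiles used log2 CPM with a prior count of 2. Alternatives were DESeq2 1.42.0, limma-voom (limma 3.58.1), DESeq2 size factors in edgeR, no filter, 1 CPM in 3 libraries, the replicate number as a block, a prior count of 0.5 and each library left out. Counts of the 10 genes at an unadjusted p or without overlap were recomputed the same way, an addition made after seeing the data. Fits were first checked on simulated counts. No 2 libraries of a group agreed within sampling noise (chi-square per degree of freedom 17.0 to 163). The 10 genes and all lists were chosen with earlier results of these data known. Named genes were the 10, up to 4 genes with the smallest p in each list, and the 3 nearest in pattern to COL4A1, LAMA4 and NID1. Marker lists were fixed by role. Single markers were named for their values, such as ROBO4, CLDN5 and CSPG4, whose groups did not overlap. The RefSeq table (ARS-UI_Ramb_v3.0) was used for names and neighbours, and held 9 of the 10 symbols.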

Additional observations from a re-analysis of the deposited data

How the results depend on the processing

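DESeq2's Wald test called 152 genes higher and 66 lower, where edgeR called 0 and 0. The other alternatives, library left out or not, called 0 genes, and 0 of the 10 passed in any. Of 120 alternative log2 fold changes of the 10 genes, 113 kept their sign and 7 turned sign. For LAMA5 (-0.02) these were limma-voom (0.0027), the replicate block (0.0044) and single libraries left out (-0.173 to 0.115). LAMC1 (-0.08) ran from -0.150 to 0.0508 with single libraries left out. With single libraries left out, the group differences in log2 ratio also crossed 0 for COL4A2 to COL4A1 (-0.0677 to 0.0694), LAMB2 to LAMB1 (-0.273 to 0.304) and NID2 to NID1 (-0.0767 to 0.907). The count of the 10 at an unadjusted p under 0.05 (5) ran from 0 to 4 with single libraries left out. The cause was not tested.

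Replicate numbers are shared between the groups, but same-numbered libraries did not deviate together (correlations of 0.151, -0.109 and 0.092 over genes). With the replicate block 0 genes were called and 4 of the 10 were at an unadjusted p under 0.05, beside 8.15% of all genes. A prior count of 0.5 moved 0 of the 4 ratios across 0. The lowest count of the 10 genes in any library was 3364.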
